A study of Mus musculus with 18 samples.

Results

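The nuclear-encoded subunits of oxidative phosphorylation are the proteins of complexes I to V of the inner mitochondrial membrane that are made from nuclear genes. Members were the protein-coding genes whose mouse symbol starts with Ndufa, Ndufb, Ndufc, Ndufs, Ndufv, Uqcr or Atp5, or is Sdha to Sdhd, Cyc1 or one of the Cox4 to Cox8 genes. Ndufaf assembly factors and pseudogenes were left out. This rule found 86 of the 48795 genes in the table: 36 of complex I, 4 of complex II, 9 of complex III, 20 of complex IV with Ndufa4 and Ndufa4l2, and 17 of complex V. Of these, 81 had enough counts to be tested and 5 did not.

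Complexes I and II pass electrons from NADH and succinate to ubiquinone, complex III passes them to cytochrome c and complex IV to oxygen. Complexes I, III and IV pump protons on the way, and complex V, the ATP synthase, uses the proton gradient to make ATP. A further 13 subunits are encoded by mitochondrial DNA, so complexes I, III, IV and V need transcripts from both genomes, and slow muscle is known for a high content of all of them.

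The cells were C2C12 myotubes, the multinucleated fibres into which this mouse myoblast line fuses during 5 days of differentiation in horse serum. Of the 6 groups of 3 libraries, 3 received 200 µM dexamethasone (dex), a synthetic glucocorticoid, for the last 24 h: dex after 12 h of vehicle (0.1% DMSO), dex_gRc10 after 12 h of 10 µM ginsenoside Rc, and dex_gRc20 after 12 h of 20 µM. Ginsenoside Rc is a triterpenoid saponin of ginseng. The groups without dexamethasone were control, with 0.1% DMSO for 36 h, gRc10, with 10 µM ginsenoside Rc for 36 h, and gRc20, with 20 µM for 36 h. The labels do not say whether ginsenoside Rc stayed on during dexamethasone. The design asks whether the glucocorticoid changes myotube transcripts and whether the ginsenoside alters that. All libraries come from this cell line and carry the same batch name. Separate cultures for the replicates are not stated in the labels, so each p-value reflects only variation among the libraries at hand, which may be technical variation.

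Library totals ran from 32.4 to 45.4 in units of 1e6 expected counts. All 12 myotube markers were tested, with summed levels from 24606.0 to 28116.1 CPM (counts per 1e6 after scaling for library composition). Replicate 2 of gRc20 stood apart from the other 17 libraries. Its 13 mitochondrially encoded subunits took 2.56% of counts, against 1.09% to 1.75% elsewhere, and its cytosolic ribosomal protein genes 1.93%, against 2.21% to 2.88% elsewhere. The main results that rest on gRc20 are therefore given with and without that library.

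Promoters are shown for 3 members that rose with dexamethasone in all 3 comparisons below, so that the sequence just upstream of them can be read. Only stretches that hold a motif marked here were chosen. The marks therefore do not show how common these motifs are in co-moving subunit genes. Each is a stretch of 150 bases that ends where the earlier of the RefSeq and GENCODE gene starts begins, written 5′ to 3′ on the gene's strand, from RefSeq sequence of GRCm38.p6. Capitals mark CCAAT boxes (CCAAT or its reverse complement ATTGG) and SP1 motifs (GGGCGG or CCGCCC).
Atp5b (chr10:128083123-128083272, plus strand): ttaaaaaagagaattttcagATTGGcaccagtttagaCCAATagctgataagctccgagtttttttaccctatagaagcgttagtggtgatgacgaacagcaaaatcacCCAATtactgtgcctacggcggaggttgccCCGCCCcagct
Ndufa8 (chr2:36049407-36049556, minus strand): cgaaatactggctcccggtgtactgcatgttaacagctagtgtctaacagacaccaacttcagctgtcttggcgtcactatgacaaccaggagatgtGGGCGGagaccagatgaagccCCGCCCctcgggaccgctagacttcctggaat
Ndufa6 (chr15:82354323-82354472, minus strand): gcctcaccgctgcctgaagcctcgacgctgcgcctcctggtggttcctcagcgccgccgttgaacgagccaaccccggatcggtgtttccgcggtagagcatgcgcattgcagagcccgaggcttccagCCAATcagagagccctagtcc

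Motifs were counted on both strands in windows from 250 bases before to 50 bases after the RefSeq start, which were found for 67 tested members and 11176 tested genes. The exact palindromic motif of NRF1, a known activator of respiratory genes, stood in 5 of 67 member windows, or 7.46%, against 1.96% of all windows. These 5 were Atp5g2, Atp5k, Cox6a1, Ndufa11 and Uqcrc1. A looser form with 1 free base, which contains the exact one, stood in 23.9% of member windows and 10.0% of all windows. The motif AAGGTCA of oestrogen-related receptors stood in 11.9% of member windows and 3.16% of all, and the YY1 motif AAGATGGCG in 8.96% and 3.02%. The ETS motif CCGGAAG of GABPA stood in 22.4% and 17.4%, CCAAT in 41.8% and 38.7%, TATAAA in 8.96% and 7.66%, and GGGCGG in 40.3% and 62.9%. The palindromic motif of the glucocorticoid receptor was in 0 of 67 member windows and in 0.322% of all windows, so it was rare in either set. The median GC content was 57.3% in member windows and 60.7% in all windows. A match is a description of letters only.

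Every tested member was transcribed in all 18 libraries. Per kilobase of transcript, an approximate scale because the expressed isoform was not measured, mean levels ran from 7.61 to 182.3 CPM per kb in complex I, 28.6 to 78.4 in complex II, 61.3 to 306.2 in complex III and 2.79 to 776.8 in complex V. The tested members of complex IV ran from 13.6 CPM per kb for Cox7a1 to 349.6 for Cox6b1. The highest level of all was that of Atp5b, the catalytic beta subunit of the ATP synthase, at 776.8 CPM per kb, and the lowest tested one that of Atp5s at 2.79. Within complex I, Ndufb9 led at 182.3 and Ndufb2 was last at 7.61, though Ndufb2 has a long annotated transcript. By CPM without a length correction, the lowest tested member of complex I was Ndufb2 (mean over all libraries 18.4 CPM). The highest and lowest were Sdha (227.4) and Sdhb (70.8) in complex II, and Uqcrc1 (148.5) and Uqcr10 (64.6) in complex III. In complexes IV and V they were Cox4i1 (222.5) and Cox7a1 (5.36), and Atp5b (1488.4) and Atp5s (4.31).

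Cytochrome oxidase has paired isoforms that tissues use to different degrees. Of the heart and skeletal muscle isoforms, Cox6a2 reached 82.3 CPM per kb, against 198.3 for its widely expressed partner Cox6a1, Cox7a1 reached 13.6 against 67.5 for Cox7a2, and Cox8b 55.5 against 216.8 for Cox8a. The widely expressed isoform was thus the higher one in each pair on the per-kilobase scale. Cox7a2l, a related protein of respiratory supercomplexes, reached 85.8 CPM per kb. The 5 untested members were isoforms best known from other settings. Cox8c, a testis isoform, had 0 counts in all 18 libraries. Cox4i2, a lung isoform, had 0 to 4 counts per library, and Cox7b2, a testis paralogue of Cox7b, 0 to 3, against 125.3 CPM per kb for Cox7b. Cox6b2, the testis paralogue of Cox6b1, had 0 to 5 counts, most of them near the floor of 3 counts. Ndufa4l2, a hypoxia-induced paralogue of Ndufa4, had 1 to 3 counts in the libraries with dexamethasone and 3 to 10 in those without. Ndufa4 itself stood at 223.1 CPM per kb. The 3 genes Atp5g1, Atp5g2 and Atp5g3 encode the same mature ring subunit of the ATP synthase, and their levels per kb were 18.3, 400.4 and 254.4, with a long annotated transcript behind the value of Atp5g1.

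**Figure D1:**
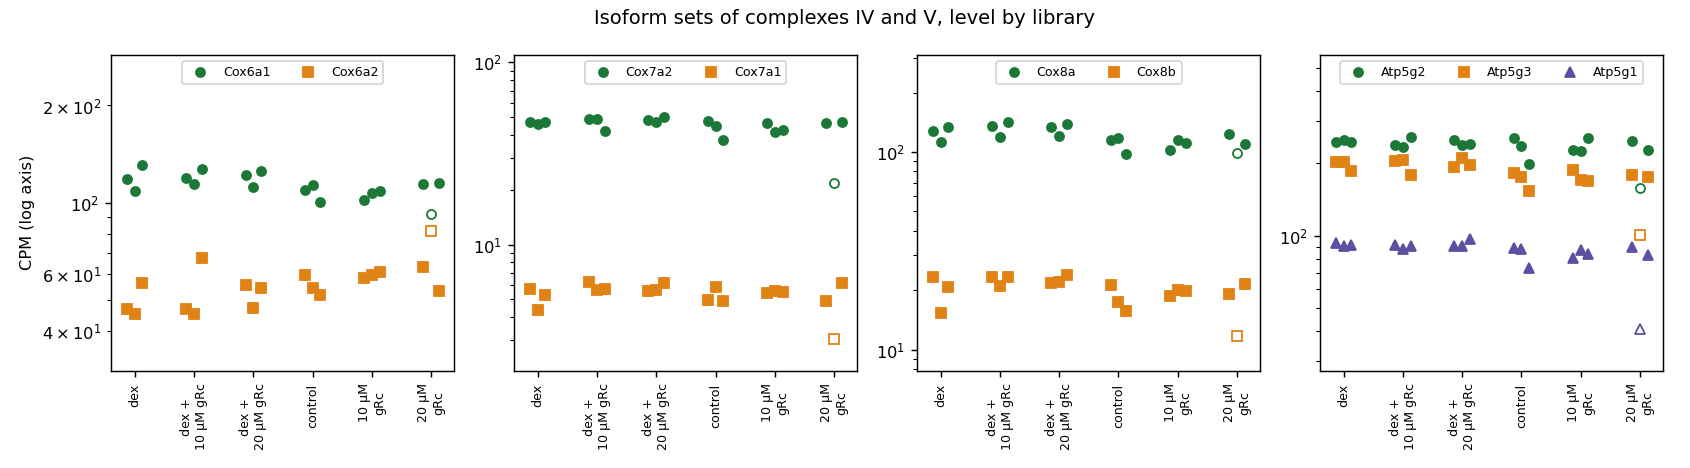
CPM on a log axis (vertical) of 4 isoform sets in each of the 18 libraries, grouped by treatment (horizontal); each symbol is 1 library and the open symbol is replicate 2 of gRc20. Taken over all 18 libraries, those with and without dexamethasone overlap for each of these 9 genes. Within each of the 3 matched comparisons, Atp5g1 was higher with dexamethasone without overlap, as were 17.8% of all genes. The open symbols lie apart from the other libraries of their group for most genes.

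With dexamethasone, subunit transcripts of all 5 complexes were slightly higher. The summed level of the 86 members was 10717.1, 10358.3 and 10957.3 CPM in dex libraries, against 9480.5, 9695.2 and 8856.7 CPM in control libraries. It averaged 10677.6 ± 301.5 CPM in dex and 9344.1 ± 435.6 CPM in control (SD, n = 3 each), a ratio of 1.14. The groups did not overlap. Control replicate 3 was the lowest control library, below the mean of the other 2 for 75 of the 81 tested members. With only library totals for scaling the ratio was 1.09. The libraries are bulk RNA, so a change in the cells of a type and a change in RNA per cell cannot be told apart.

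Complex I summed to 2765.1 ± 63.7 CPM in dex and 2487.5 ± 126.6 CPM in control, complex II to 512.7 ± 13.1 and 442.8 ± 12.4 CPM, and complex III to 1103.6 ± 27.0 and 947.9 ± 52.0 CPM. Complex IV summed to 1744.0 ± 100.4 CPM in dex and 1541.7 ± 118.2 CPM in control, and complex V to 4552.1 ± 122.9 and 3924.2 ± 132.7 CPM (SD, n = 3 each throughout). After scaling for library composition, the lowest dex library lay above the highest control library in each complex. With only library totals for scaling, the groups overlapped in complexes I and IV. To the sum of complex V, Atp5b alone gave 1625.9 ± 71.9 CPM in dex and 1291.9 ± 56.0 CPM in control.

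**Figure D2:**
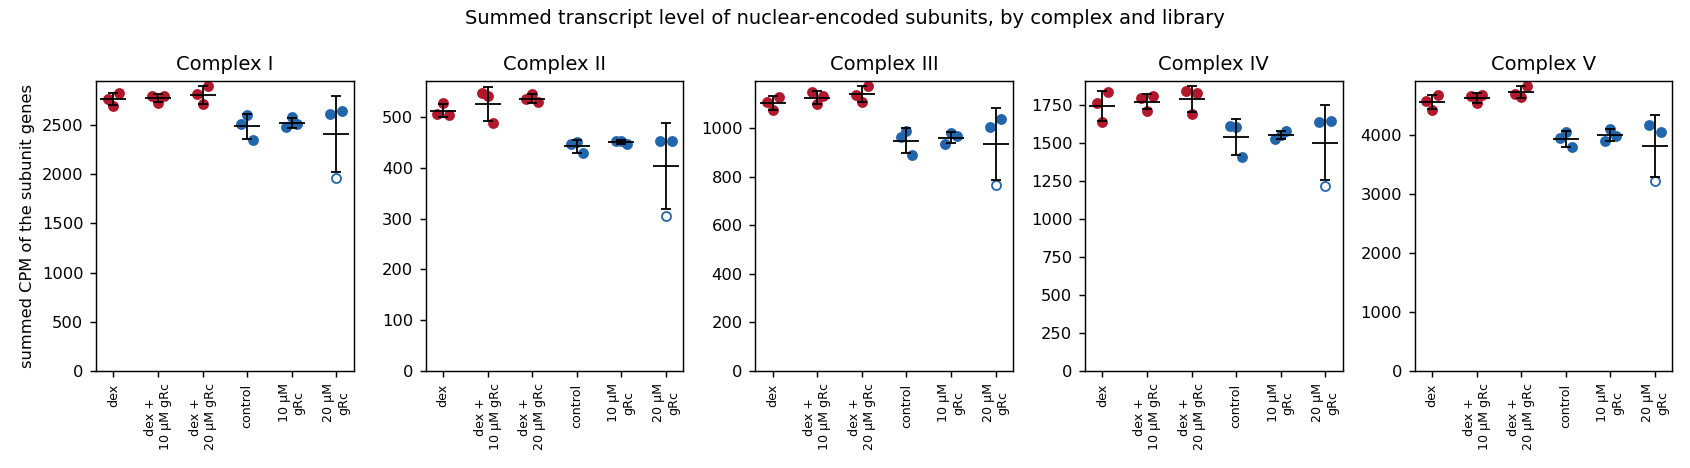
Summed CPM of the subunit genes (vertical) of each complex in the 18 libraries, by treatment (horizontal); points are libraries, lines are means with SD over n = 3, red marks dexamethasone and the open point is replicate 2 of gRc20. The 9 libraries with dexamethasone lie above the 9 without it in each panel except complex IV, where 2 gRc20 libraries reach the lowest dex library, and the open point lies below all others.

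Of the 81 tested members, 19 rose and 0 fell in dex against control (adjusted p below 0.05, edgeR quasi-likelihood test with Benjamini-Hochberg adjustment over 15436 genes). Of all genes tested, 20.6% rose and 23.2% fell. The 23.5% of members that rose is near that background in this fit, and the share depended on the fit. With voom quality weights 50.6% of members rose, against 26.6% of all genes, and with only the compared groups in the fit 49.4%, against 26.4%. Estimates were above 0 for 73 of the 81 members, against 49.2% of all genes, with a median log2 fold change of 0.16, against -0.01 for all genes. Without scaling for library composition, 6 members rose, against 15.3% of all genes, the median of all genes was -0.07 and that of the members 0.09. All 3 dex libraries lay above all 3 control libraries for 41 members and below them for 0, against 28.8% and 30.5% of all genes.

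Complex I, the entry point for electrons from NADH, had 9 of its 36 members among those that rose. Ndufs7, the iron-sulfur subunit next to the ubiquinone site (chromosome 10, 80249121 to 80256794, GRCm38), had 65.7, 60.0 and 72.4 CPM in dex libraries, against 45.0, 53.1 and 48.0 CPM in control libraries. All dex libraries were above all control libraries, and the log2 fold change was 0.44 ± 0.08 (SE; adjusted p = 0.00017), the largest of any member. Ndufa10, an accessory subunit of the membrane arm (chromosome 1, 92439010 to 92473860), had 137.6, 124.1 and 142.0 CPM in dex libraries, against 104.5, 107.7 and 109.4 CPM in control libraries. Its groups did not overlap either, and its log2 fold change of 0.33 ± 0.05 had the smallest adjusted p among the members, 5.2e-05. Ndufb10, an accessory subunit of the distal membrane arm (chromosome 17, 24722060 to 24724478), had 77.6, 71.4 and 80.2 CPM in dex libraries, against 59.7, 67.6 and 53.8 CPM in control libraries, a log2 fold change of 0.34 ± 0.08.

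Ndufb9, a membrane-arm subunit (chromosome 15, 58933756 to 58939488), had 148.2, 145.2 and 144.9 CPM in dex libraries, against 111.6, 114.9 and 98.7 CPM in control libraries. The gap was wide, with a log2 fold change of 0.43, but the error of 0.14, set by all 18 libraries, left an adjusted p of 0.024. The other members of complex I that rose were Ndufa8 (0.24), Ndufs1 (0.23), Ndufa6 (0.22), Ndufv2 (0.20) and Ndufab1 (0.17). Ndufs1 and Ndufv2 belong to the module that oxidises NADH, and Ndufab1 is the mitochondrial acyl carrier protein. Ndufv1, the flavin-binding partner of Ndufv2, had an estimate of 0.21 ± 0.17 that did not pass. Estimates for the 36 members of complex I had a median of 0.12.

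In complex II, which is also the succinate dehydrogenase of the citric acid cycle, 1 of 4 members rose. Sdha, the flavoprotein that oxidises succinate (chromosome 13, 74322254 to 74350280), had 237.0, 252.3 and 239.3 CPM in dex libraries, against 203.7, 205.7 and 203.5 CPM in control libraries. The groups were far apart relative to their spread, and the log2 fold change was 0.25 ± 0.09 (adjusted p = 0.038). Sdhd, a membrane anchor, had 98.2, 102.9 and 94.2 CPM in dex libraries, against 86.0, 84.0 and 75.9 CPM in control libraries. Those groups did not overlap, and the estimate of 0.26 ± 0.15 did not pass.

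Complex III had 3 of 9 members that rose, the haem protein Cyc1 and the core pair Uqcrc1 and Uqcrc2. Cyc1, which hands electrons to cytochrome c (chromosome 15, 76343523 to 76346260), had 157.4, 162.3 and 159.8 CPM in dex libraries, against 125.0, 127.6 and 112.9 CPM in control libraries, a log2 fold change of 0.39 ± 0.10 (adjusted p = 0.0033). Uqcrc1 (chromosome 9, 108936633 to 108949623) had 157.1, 153.4 and 158.3 CPM in dex libraries, against 134.7, 142.3 and 130.5 CPM in control libraries. Its log2 fold change was 0.20 ± 0.05, and that of Uqcrc2 was 0.19 ± 0.05. For all of them the dex libraries lay above the control libraries. Uqcrfs1, the Rieske iron-sulfur protein, had an estimate of 0.22 ± 0.18 that did not pass.

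Complex IV had 1 of 15 tested members that rose, the zinc-binding subunit Cox5b. Cox5b (chromosome 1, 36691449 to 36693681) had 176.7, 169.3 and 183.4 CPM in dex libraries, against 160.5, 149.5 and 140.0 CPM in control libraries, a log2 fold change of 0.23 ± 0.08 (adjusted p = 0.027). The groups were separate. Cox5a had 90.0, 86.6 and 95.7 CPM in dex libraries, against 75.9, 73.3 and 68.0 CPM in control libraries, and missed the threshold at 0.33 ± 0.13 (adjusted p = 0.059). Isoform pairs had estimates of 0.15 ± 0.08 for Cox6a1 and -0.16 ± 0.15 for Cox6a2, of 0.11 ± 0.19 for Cox7a2 and -0.04 ± 0.16 for Cox7a1, and of 0.18 ± 0.09 for Cox8a and 0.13 ± 0.18 for Cox8b. None of these 6 passed in dex against control. Cox6a2 had 46.6, 45.1 and 56.5 CPM in dex libraries, against 59.8, 54.3 and 51.5 CPM in control libraries, and the groups overlapped. Cox4i1, Cox6b1, Cox7a2l, Cox7b and Ndufa4 had estimates of 0.23, 0.20, 0.17, 0.09 and 0.19 that did not pass either.

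Complex V had 5 of 17 members that rose, all of them subunits of its catalytic head or its stalks. Atp5b (chromosome 10, 128083273 to 128090391) had 1623.1, 1555.4 and 1699.3 CPM in dex libraries, against 1243.4, 1353.1 and 1279.1 CPM in control libraries, a log2 fold change of 0.33 ± 0.06 (adjusted p = 0.0002). Atp5a1, the alpha subunit of the head, had 733.0, 752.4 and 752.1 CPM in dex libraries, against 640.9, 650.7 and 651.2 CPM in control libraries, a log2 fold change of 0.20 ± 0.07. Both genes had the dex libraries above the control libraries. Atp5f1, of the peripheral stalk, had 266.4, 257.9 and 272.8 CPM in dex libraries, against 228.8, 218.1 and 211.6 CPM in control libraries, at 0.28 ± 0.05 (adjusted p = 0.00013). Atp5c1, the gamma subunit of the central stalk, was at 0.21 ± 0.07, and Atp5j, of the peripheral stalk, at 0.19 ± 0.06. The ring genes Atp5g1, Atp5g2 and Atp5g3 had estimates of 0.14 ± 0.19, 0.10 ± 0.12 and 0.22 ± 0.15 and did not pass. Other subunits of the stalks did not pass either, with estimates of 0.06 for Atp5d, 0.14 for Atp5h and 0.16 for Atp5o. Estimates below 0 were those of Atp5s (-0.04 ± 0.11), Atp5e, the epsilon subunit (-0.11 ± 0.29), and Atp5k (-0.14 ± 0.32).

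Members that rose had longer transcripts and smaller errors than the others. Their median transcript length was 1604.0 bases, against 681.5 bases for the tested members that did not pass, and their median standard error was 0.07, against 0.12 on the log2 scale. Their median level was 128.3 CPM, against 85.9 CPM. Whether the smaller errors account for which members passed was not tested. The test recovered 34% of simulated 1.2-fold changes and 94% of 1.5-fold changes in dex against control over 15238 genes, while the median member estimate was 0.16 on the log2 scale. The simulated spread came from all 18 libraries, replicate 2 of gRc20 among them. The changed genes were drawn at random from genes above a minimum level. They were a small share of all genes, while 20.6% of genes rose and 23.2% fell in the data. The Benjamini-Hochberg adjustment is stricter when fewer genes change. These rates therefore need not hold for the members in the dex and control libraries.

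Other genes of the pathway were counted from lists, to be read against the 20.6% of all genes that rose and the 23.2% that fell. Of 17 genes of the citric acid cycle and pyruvate dehydrogenase, 8 rose and 1 fell in dex against control, with a median of 0.17. Pdha1, of pyruvate dehydrogenase, rose by 0.47 ± 0.05. Of 23 electron carrier and adenylate transport genes, 10 rose and 2 fell, with a median of 0.22. Ckmt2, the mitochondrial creatine kinase of muscle, rose by 1.44 ± 0.15, and Coq10b, a coenzyme Q binding protein, fell by 0.42. Of 46 assembly factors, 7 rose and 0 fell, with a median of 0.03, and Coa7 and Uqcc3, which serve complexes IV and III, rose by 0.42 ± 0.08 and 0.48 ± 0.14. Of 18 regulators of respiratory genes, 5 rose and 1 fell. Among them Ppargc1a, the coactivator PGC-1 alpha, rose by 0.67 ± 0.11 and Esrra, an oestrogen-related receptor, by 0.43 ± 0.09. Of the 13 mitochondrially encoded subunits, 2 rose and 0 fell, namely mt-Atp6 at 0.92 ± 0.24 and mt-Co1 at 0.53 ± 0.20, and the median was 0.47. The cytosolic ribosomal proteins, another large set of short abundant transcripts, had 0 rises and 3 falls among 79 tested genes and a median of -0.09. Rpsa fell by 0.26 and Rpl17 by 0.14 on the log2 scale.

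Markers of other cell states moved with dexamethasone as well. The summed level of 6 markers of undifferentiated myoblasts and dividing cells was 91.8 to 93.4 CPM in dex and 207.3 to 210.8 CPM in control, with 5 of them lower and Myf5, a myogenic factor of myoblasts, higher by 1.14 ± 0.10. The 12 myotube markers summed to 25763.0 to 27285.3 CPM in dex and 24606.0 to 24887.3 CPM in control, but moved in both directions. Of these 12, 7 rose, among them Myh8 by 1.44 ± 0.05, and 4 fell, namely Myh3, the embryonic myosin heavy chain, by 0.90, Actc1 by 0.38, Mymx by 0.35 and Mb by 0.25 on the log2 scale. Fibroblast markers summed to 141.0 to 154.9 CPM in dex and 192.2 to 218.3 CPM in control, with Dpt, Lum and Dcn lower and Pdgfra higher among 4 tested. Of 6 adipocyte markers, 2 were tested, and the list summed to 68.0 to 73.1 CPM in dex and 12.4 to 14.1 CPM in control. Cebpa, a transcription factor, gave nearly all of that sum, with 66.8 ± 2.12 CPM in dex and 13.2 ± 0.859 CPM in control, while Adipoq and Plin1 were at or near 0. Fabp4, the other tested adipocyte marker, rose as well (edgeR adjusted p = 6.1e-12), with 4.11, 3.15 and 3.77 CPM in dex libraries, against 0.0, 0.0221 and 0.0 CPM in control libraries. The part of these markers in the subunit results was not tested.

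The dexamethasone response was measured again with ginsenoside, in libraries not shared with dex against control. If ginsenoside was removed before dexamethasone, these comparisons also set 12 h of ginsenoside against 36 h, and the 2 cannot be told apart. In dex_gRc10 against gRc10, 22 members (27.2%) rose and 0 fell, against 21.1% and 23.0% of all genes. With voom quality weights 50.6% of members rose, against 27.4% of all genes, and Cox6a2 fell, against 28.5%. With only the compared groups 56.8% rose, against 26.5%, and Atp5e fell, against 28.0%. The median was 0.16, against 0.00 for all genes. Without composition scaling 8 members rose, against 15.9% of all genes. The dex_gRc10 libraries lay above the gRc10 libraries for 43 members and below for 1, Atp5e, against 29.2% and 30.6% of all genes. In dex_gRc20 against gRc20, 33 members (40.7%) rose and 0 fell, against 23.5% and 25.4% of all genes, with a median of 0.26. With voom quality weights 32.1% of members rose, against 27.4% of all genes, and with only the compared groups 12.3%, against 15.4%. The dex_gRc20 libraries lay above the gRc20 libraries for 37 members and below for 1, Ndufv3, against 24.5% and 25.6% of all genes. Without composition scaling 18 rose, against 18.9% of all genes, and 2 fell, Ndufv3 and Cox6a2, against 29.3%.

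In all 3 comparisons the same 16 members rose: Ndufa6, Ndufa8, Ndufa10, Ndufb10, Ndufs1, Ndufs7 and Ndufv2 of complex I, Sdha, Cyc1, Uqcrc1, Uqcrc2, Cox5b, and Atp5a1, Atp5b, Atp5c1 and Atp5f1. That is 19.8% of the tested members, against 16.3% of all genes. Without replicate 2 of gRc20, Ndufa6 did not rise in dex_gRc20 against gRc20. The counts of members over the 3 comparisons are given with that library only. A rise in at least 1 comparison was found for 36 members, or 44.4%, against 28.2% of all genes, and 45 passed in none. Estimates were above 0 in all 3 for 66 members, or 81.5%, against 38.2% of all genes, and below 0 in all 3 for Atp5s and Cox6a2. Members whose 3 libraries with dexamethasone lay above the 3 without in every comparison numbered 27, against 17.8% of all genes as a share. Atp5b, Atp5f1, Cyc1, Ndufa10 and Ndufb10 rose in all 3 comparisons under each alternative fit tried, including the one without composition scaling.

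Atp5b had 1684.1, 1601.2 and 1698.6 CPM in dex_gRc10, against 1282.8, 1422.5 and 1286.1 CPM in gRc10. At the higher dose it had 1697.1, 1680.9 and 1744.7 CPM in dex_gRc20, against 1384.8, 1204.5 and 1350.5 CPM in gRc20. Its libraries with dexamethasone were above those without at both doses, with log2 fold changes of 0.32 ± 0.06 and 0.38 ± 0.06. Ndufa10 had 137.8, 129.3 and 141.2 CPM in dex_gRc10, against 103.1, 110.8 and 109.4 CPM in gRc10. In dex_gRc20 it had 137.6, 132.2 and 142.4 CPM, against 107.4, 109.1 and 112.9 CPM in gRc20. Its response was of about the same size in each comparison, at 0.33, 0.34 and 0.32 on the log2 scale with errors of 0.05. Ndufs7 had 65.8, 63.0 and 69.3 CPM in dex_gRc10, against 46.4, 52.7 and 49.7 CPM in gRc10, a log2 fold change of 0.41 ± 0.08. It had 62.9, 66.2 and 71.5 CPM in dex_gRc20, against 55.3, 60.6 and 52.1 CPM in gRc20, a log2 fold change of 0.26 ± 0.08.

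Cyc1 had 164.6, 162.5 and 154.6 CPM in dex_gRc10, against 120.0, 126.9 and 127.9 CPM in gRc10, and 161.4, 163.2 and 173.1 CPM in dex_gRc20, against 128.8, 90.1 and 134.0 CPM in gRc20. The value of 90.1 is that of replicate 2, and the log2 fold changes were 0.36 ± 0.10 and 0.50 ± 0.10. Sdha had 258.7, 267.1 and 254.0 CPM in dex_gRc20, against 209.3, 146.6 and 211.6 CPM in gRc20, so that replicate 2 was again the low library. Atp5f1 had 267.6, 268.2 and 266.5 CPM in dex_gRc10, against 210.3, 212.6 and 217.0 CPM in gRc10, at 0.33 ± 0.05. Transcripts of Atp5f1 overlap those of its neighbour Wdr77, whose count was 28.7% of that of Atp5f1. How the deposited counts split any shared reads is uncertain.

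Genes that rose with 10 µM and not in dex against control were Atp5h, of the peripheral stalk, at 0.19 ± 0.06, Cox5a at 0.37 ± 0.13, Cox8a at 0.27 ± 0.09, Uqcrb at 0.22 ± 0.07 and Uqcrh, the hinge protein of complex III, at 0.31 ± 0.11. A difference between the comparisons is tested by the interaction below. A further 12 members passed at 20 µM and in neither other comparison, and 0 of them passed the interaction: Atp5g3, Atp5o, Cox4i1, Cox6b1, Cox7a2l, Ndufa5, Ndufb5, Ndufb8, Sdhb, Sdhc, Sdhd and Uqcrfs1. The largest estimates there were 0.59 ± 0.14 for Ndufb9, 0.56 ± 0.13 for Cox5a, 0.53 ± 0.15 for Sdhd, 0.51 ± 0.18 for Uqcrfs1, 0.50 ± 0.10 for Cyc1, 0.46 ± 0.09 for Sdha, 0.41 ± 0.16 for Cox4i1 and 0.41 ± 0.17 for Ndufv1, of which Ndufv1 did not pass. Sdhd had 105.9, 104.1 and 100.3 CPM in dex_gRc20, against 83.5, 47.4 and 84.5 CPM in gRc20, and Uqcrfs1 had 98.0, 98.9 and 97.6 CPM, against 87.2, 41.8 and 76.9 CPM. In both genes the distance between the groups was widest for replicate 2 of gRc20.

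**Figure D3:**
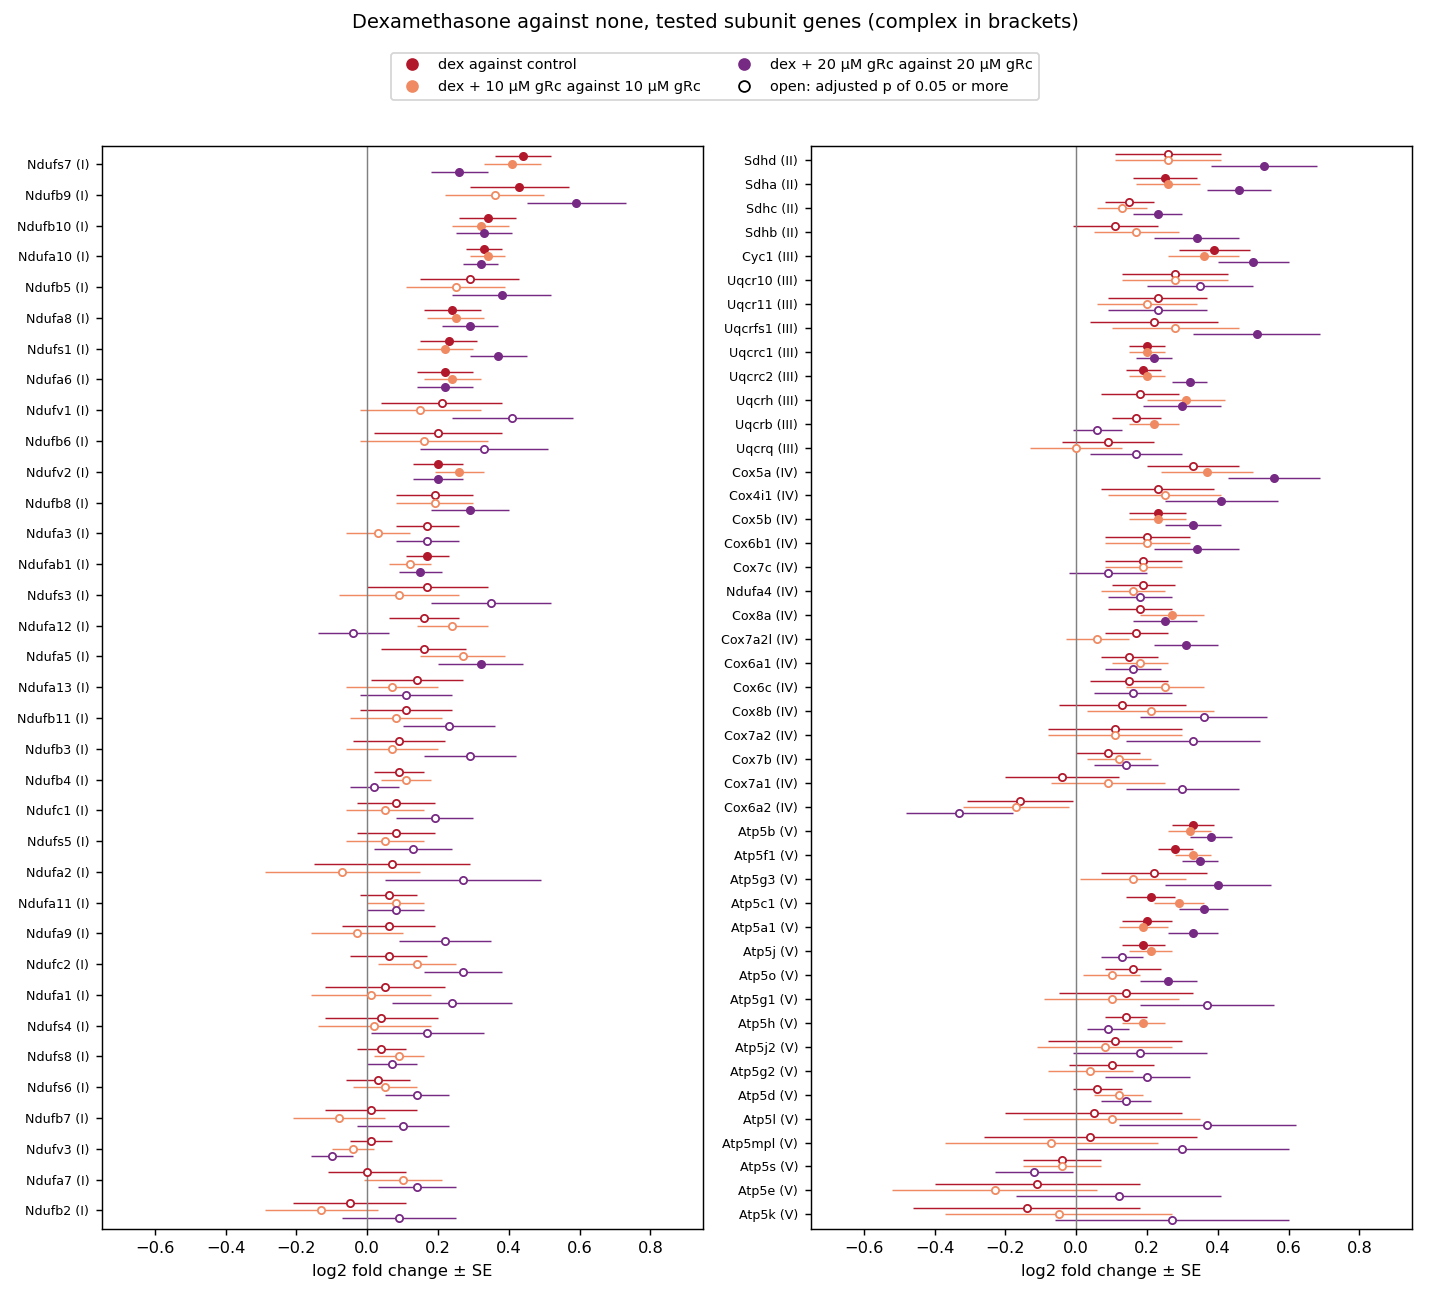
Log2 fold change with SE (horizontal) of 80 of the 81 tested members (vertical, complex in brackets) for dex against control (red), dex_gRc10 against gRc10 (orange) and dex_gRc20 against gRc20 (purple); filled symbols have an adjusted p below 0.05. Most points lie right of 0, filled symbols lie only right of 0, and the purple points of many members, such as Sdhd and Uqcrfs1, lie farther right than the others.

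Across the 81 members, the log2 fold changes of dex against control and dex_gRc10 against gRc10 had a Pearson r of 0.89 and a Spearman rho of 0.87. With dex_gRc20 against gRc20 the values were 0.64 and 0.65 for dex against control, and 0.58 and 0.56 for dex_gRc10 against gRc10. These are descriptions across genes, which are not independent, and the points share transcript length, level and the scaling of their libraries.

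**Figure D4:**
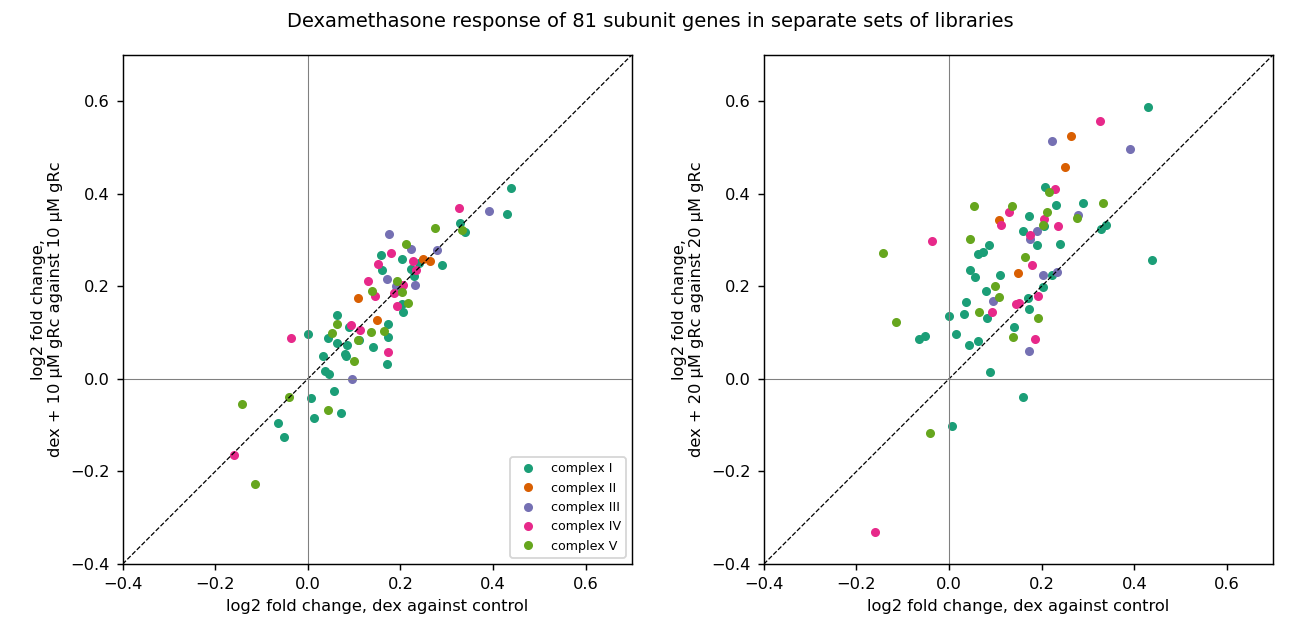
Log2 fold change of the 81 tested members in dex against control (horizontal) against that in dex_gRc10 against gRc10 (left, vertical) and in dex_gRc20 against gRc20 (right, vertical), with the line of equal change dashed. Points of the left panel follow the line (r = 0.89), and most points of the right panel, where replicate 2 of gRc20 enters, lie above it (r = 0.64).

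Replicate 2 of gRc20 was the low library for most members. Its summed level was 7463.6 CPM, against 9885.7 and 9822.7 CPM in the other gRc20 libraries. The median member was lower by a log2 difference of -0.56 relative to the mean of those 2 libraries, 74 of 81 members lay below that mean and 72 below both libraries, where 42.8% of all tested genes lay below both. Cytosolic ribosomal protein genes were lower too, with a median of -0.66, while the mitochondrially encoded subunits were higher, with a median of 1.06. Subunits of complex V had the lowest values, at -1.88 for Atp5k, -1.72 for Atp5mpl, -1.70 for Atp5e and -1.43 for Atp5l, which have short transcripts of 371.0, 366.0, 421.0 and 544.0 bases. Over the 81 members the deviation had a Pearson r of 0.25 and a Spearman rho of 0.22 with log2 transcript length. Members with values near 0 included Ndufa10 at -0.01 and Ndufv3 at 0.01, and the highest were Cox6a2 at 0.49, Atp5s at 0.33, Ndufa12 at 0.32 and Uqcrb at 0.25.

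**Figure D5:**
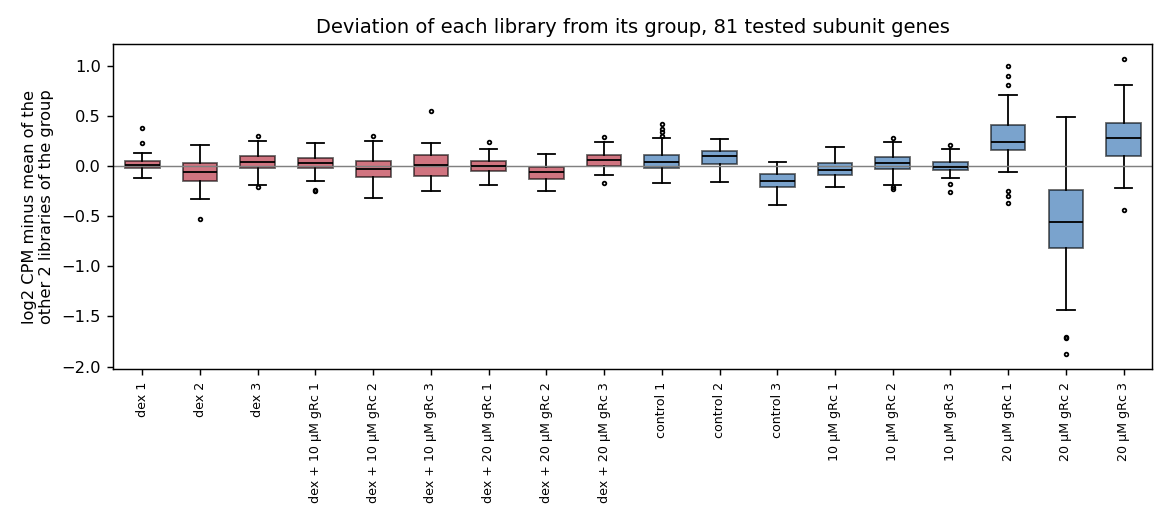
Log2 CPM of each library minus the mean of the other 2 libraries of its group (vertical) over the 81 tested members, for each of the 18 libraries (horizontal); boxes span the quartiles with the median as a line, red boxes have dexamethasone, and dots are members far from their box. Replicate 2 of gRc20 has a median of -0.56 and control replicate 3 of -0.15, and the boxes of gRc20 replicates 1 and 3 lie above 0 because replicate 2 is in their comparison.

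Without replicate 2 of gRc20 the errors of most members were smaller, also in comparisons that do not use that library, since the groups share 1 estimate of the spread. In dex against control the error was smaller for 75 members, equal for 5 and larger for 1, with a median of 0.06 without the library and 0.11 with it. In dex against control 43 members then rose and 0 fell, with all 19 of the rises above among them, against 25.2% of all genes that rose. In dex_gRc10 against gRc10 40 rose, with all 22 among them, against 25.9% of all genes, and Atp5e fell by 0.22, against 26.7% of all genes that fell. In dex_gRc20 against gRc20 28 rose, against 25.4% of all genes, and Atp5e fell by 0.25, against 25.6%. There 27 of the 33 rises held and 6 did not, those of Cox6b1, Cox8a, Ndufa6, Ndufab1, Ndufb8 and Uqcrh, while Ndufv1 was added. The median of that comparison was 0.09 without the library and 0.26 with it. Sdhd, for example, had an estimate of 0.30 ± 0.06 without the library and 0.53 ± 0.15 with it, and Uqcrfs1 0.26 ± 0.09 and 0.51 ± 0.18. Atp5e had 42.6, 43.2 and 37.1 CPM in dex_gRc10, against 51.5, 45.0 and 47.5 CPM in gRc10, and 38.8, 41.7 and 39.4 CPM in dex_gRc20, against 48.6, 14.6 and 46.6 CPM in gRc20. Its estimate at the higher dose was -0.25 ± 0.09 without the library and 0.12 ± 0.29 with it, so its direction turned on that library. Apart from the 14.6 CPM of replicate 2, its libraries with dexamethasone lay below those without at both doses.

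No member passed the test with ginsenoside alone. In gRc10 against control 0 of 81 members passed, where 0.00648% of all genes did (1 gene), and 0 had an unadjusted p below 0.05. The median was 0.02, and estimates ran from -0.07 to 0.16. The 3 smallest p-values were those of Ndufv3 at 0.07 ± 0.06, Ndufb10 at 0.09 ± 0.08 and Atp5c1 at -0.06 ± 0.07. The gRc10 libraries lay above the control libraries for 2 members, Sdha and Atp5o, and below for 1, Atp5s, against 5.67% and 6.39% of all genes. Sdha had 217.0, 213.6 and 208.6 CPM in gRc10, against 203.7, 205.7 and 203.5 CPM in control.

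In gRc20 against control 0 members passed, where 0.104% of all genes did, and 1 had an unadjusted p below 0.05. That member was Ndufs7, with 55.3, 60.6 and 52.1 CPM in gRc20, against 45.0, 53.1 and 48.0 CPM in control, a log2 fold change of 0.20 ± 0.08 (adjusted p = 0.47). The groups overlapped. Uqcrb and Ndufv3 followed, at 0.16 ± 0.07 and 0.11 ± 0.06. No member had separate groups in either direction, where 4.68% of all genes were higher and 7.04% lower without overlap. The median was -0.07 with replicate 2 and 0.08 without it, so the direction of the median turned on that library, and 0 members passed either way.

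No member passed with ginsenoside before dexamethasone relative to dexamethasone alone. In dex_gRc10 against dex 0 of 81 passed, where 0.0259% of all genes did, and 0 had an unadjusted p below 0.05. The median was 0.02. Cox7a1 had 6.21, 5.62 and 5.67 CPM in dex_gRc10, against 5.68, 4.40 and 5.28 CPM in dex, at 0.19 ± 0.16, the smallest p of the members. Cox8b, at 0.19 ± 0.17, and Atp5h, at 0.06 ± 0.06, came next. Separate groups were found for Ndufa5 and Uqcrh, both higher, or 2 members, and for 0 lower, against 5.23% and 5.58% of all genes.

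In dex_gRc20 against dex 0 passed, where 0.369% of all genes did, and 0 had an unadjusted p below 0.05. The median was 0.03, and the smallest p-values were those of Atp5f1 at 0.08 ± 0.05, Uqcrc2 at 0.06 ± 0.05 and Atp5b at 0.07 ± 0.06. Separate groups were found for 5 members, all higher, namely Ndufb9, Sdha, Uqcrfs1, Uqcrh and Atp5a1, and for 0 lower, against 7.23% and 7.68% of all genes. Uqcrfs1 had 98.0, 98.9 and 97.6 CPM in dex_gRc20, against 93.8, 86.1 and 91.2 CPM in dex. The summed level of all members was 10991.3 ± 286.5 CPM in dex_gRc20, 10816.8 ± 184.5 CPM in dex_gRc10 and 10677.6 ± 301.5 CPM in dex (SD, n = 3 each). The libraries of these groups overlapped, at 10689.8 to 11260.0 CPM in dex_gRc20, 10604.7 to 10940.1 CPM in dex_gRc10 and 10358.3 to 10957.3 CPM in dex.

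The interaction tests whether the dexamethasone response differed with ginsenoside, with the same limit on the length of ginsenoside exposure. At 10 µM 0 members passed, as did 0.0% of all genes, and 0 had an unadjusted p below 0.05. The median difference in response was -0.01 on the log2 scale, and Ndufa3 (-0.14 ± 0.12), Cox7a2l (-0.12 ± 0.12) and Uqcrh (0.14 ± 0.15) had the smallest p-values. At 20 µM 0 members passed, as did 0.0% of all genes, and 0 had an unadjusted p below 0.05. The smallest p-values were those of Uqcrc2 at 0.13 ± 0.07, Ndufs7 at -0.18 ± 0.11 and Sdha at 0.21 ± 0.13. The median was 0.10 with replicate 2 of gRc20 and -0.05 without it. The larger number of rises in dex_gRc20 against gRc20 than in dex against control is therefore not a tested difference for any member. DESeq2 also called 0 members in these 6 tests of ginsenoside and interaction.

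Some values may share reads with other genes. Near-identical or overlapping transcripts with at least 5% of a member's count were found for 8 members. Ndufb4 had a pseudogene copy, Ndufb4c, at 95.1% of its count, Cox7a2l had one at 37.2%, Ndufa12 at 14.6% and Atp5g2 at 6.02%. Ndufb5, Atp5f1, Cox4i1 and Ndufb6 overlap the neighbouring genes Mrpl47 (30.6%), Wdr77 (28.7%), Emc8 (11.4%) and Smim27 (7.04%). How many reads are shared was not measured, and each percentage is the whole count of the other gene. Levels and changes of these 8 may therefore be less certain than their errors imply.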

How the data were processed

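Per the labels' protocols, the 18 libraries were made from poly-A RNA with a directional kit and read as paired ends of 100 bp. STAR 2.7.3a, RSEM 1.3.3, Trim Galore 0.6.5, FastQC 0.11.9 and the build GRCm38 (mm10) stand in the submitters' processing notes. The annotation release, read filters and strand setting were not given in the sources used here. The authors deposited 1 table of RSEM expected counts for 48795 Ensembl genes, which divide reads between similar transcripts by estimation, and 22.2% of member values were not whole.

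Symbols, coordinates and transcript lengths came from GENCODE mouse release 21 (GRCm38). Expected counts were rounded, filtered with filterByExpr (15436 genes kept), scaled by TMM and fitted with edgeR 4.0.16 in R 4.3.3 (robust quasi-likelihood, 1 mean per group over all 18 libraries, 12 residual degrees of freedom). The 9 comparisons were tested with Benjamini-Hochberg adjustment at 0.05 over all tested genes, so a member is said to rise or fall only at an adjusted p below 0.05. SE is the log2 estimate over the root of its F statistic, and CPM are TMM scaled. Library deviations used a pseudocount of 0.05 CPM. The floor is 3 counts per library, and limits of this kind cover counting error only. Similar transcripts were found with BLAST+ 2.17.0 (at least 150 aligned bases at 95% identity or more). The test was checked on simulated counts drawn from the real means. Alternatives were DESeq2 1.42.0, a replicate block, median-ratio size factors, library totals without composition scaling, all genes unfiltered, limma 3.58.1 voom with quality weights, only the compared groups in the fit, and leaving out each library.

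The members, the gene lists and the rule for genes to name were chosen with earlier results of these data known. Named were members that passed in any comparison (in dex_gRc20 against gRc20 the 15 smallest p and 8 largest changes in full), the highest and lowest of each complex, isoform sets, the 3 smallest p where none passed, and 2 genes per other list; some genes this rule names are not reported here. Atp5e, Cox5a in dex against control, Ndufv1, Sdhd and Uqcrfs1 in other comparisons than their own, and the members with separate groups or far from 0 in replicate 2 of gRc20 were named after their values were seen.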

Additional observations from a re-analysis of the deposited data

How the results depend on the processing

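Without replicate 2 of gRc20 the median of the members was 0.08 in gRc20 against control and -0.05 in the interaction at 20 µM, against -0.07 and 0.10 with it. Atp5e in dex_gRc20 against gRc20 was at 0.12 with that library and fell by 0.25 without it. The number of members that passed depended on the fit. In dex against control 19 members passed; without composition scaling there were 6 (7.41% of members rose, against 15.3% of all genes), with voom quality weights 41 (50.6% against 26.6%) and with only the compared groups 40 (49.4% against 26.4%). In dex_gRc10 against gRc10 the counts were 22, and 8, 42 and 47 under the same alternatives (rises of 9.88%, 50.6% and 56.8%, against 15.9%, 27.4% and 26.5%). In dex_gRc20 against gRc20 they were 33, and 20, 26 and 10 (rises of 22.2%, 32.1% and 12.3%, against 18.9%, 27.4% and 15.4%). Without composition scaling, libraries are scaled by their count totals alone. Voom gave replicate 2 of gRc20 a weight of 0.079, against 0.489 to 2.032 for the other libraries. A fit of only the compared groups leaves that library out unless gRc20 is compared. The cause of the differences in count was not tested. Median-ratio size factors gave 19, 22 and 33 members, DESeq2 20, 23 and 36, and no low-count filter 18 (17 rises and a fall of the barely detected Ndufa4l2), 20 and 22. The summed level of the members in dex over control was 1.14, and 1.09 with library totals only. Leaving out each library gave 10 to 43 members in dex against control, 14 to 41 in dex_gRc10 against gRc10 and 19 to 43 in dex_gRc20 against gRc20. The first count was 10 without dex replicate 3, 11 without control replicate 3 and 43 without gRc20 replicate 2; the second 14 without gRc10 replicate 1 and 41 without gRc20 replicate 2; the third 19 without dex_gRc20 replicate 3. With ginsenoside as the tested factor, and for both interactions, 0 members passed under each alternative named here.

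The groups share replicate numbers in the labels. Deviations from the group means of libraries with the same number had a median correlation of 0.00 (45 pairs, -0.20 to 0.15). For libraries with different numbers it was -0.01 (90 pairs, -0.14 to 0.22). No pairing by number was seen, though a weak one could be missed. A replicate block gave 19, 22 and 33 members in the 3 dexamethasone comparisons and 0 in the others. With the spread of all 18 libraries and only a small share of genes changed, the test recovered 34% of simulated 1.2-fold changes in dex against control. That rate need not hold for the real comparison, where many more genes passed. In that comparison 19 members passed with all libraries in the fit and 40 with only the compared groups. How small a change 3 libraries per group can show in other fits was not tested. Lengths behind the per-kilobase levels are annotated, not measured.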

Other observations

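A few genes of the same machinery lie outside the symbol rule. Usmg5, a small membrane subunit of the ATP synthase, had 36.3, 33.1 and 37.4 CPM in dex libraries, against 36.7, 31.9 and 35.4 CPM in control libraries, a log2 fold change of 0.04 ± 0.07. It rose in dex_gRc10 against gRc10, by 0.25 ± 0.07 (edgeR adjusted p = 0.0098), with 36.3, 32.9 and 38.7 CPM in dex_gRc10, against 30.7, 29.2 and 31.1 CPM in gRc10. In dex_gRc20 against gRc20 its estimate was 0.06 ± 0.07, and the interaction at 10 µM, 0.21 ± 0.10, did not pass (adjusted p = 1.0).

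Atpif1, the inhibitor of ATP hydrolysis by complex V, had 175.0 CPM in replicate 2 of gRc20, against 103.2 and 104.9 CPM in the other gRc20 libraries, where most subunits were lower in that library. It passed as a fall of 0.51 ± 0.19 in dex_gRc20 against gRc20 (edgeR adjusted p = 0.034), with 93.8, 76.0 and 99.1 CPM in dex_gRc20, and its estimate in dex against control was -0.13 ± 0.19 (adjusted p = 0.63). Without replicate 2 the gRc20 mean was 104.0 CPM.

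The processed pseudogene Ndufb4c averaged 39.4 ± 3.08 CPM in dex and 37.8 ± 2.69 CPM in control (SD, n = 3 each), while its parent Ndufb4 averaged 41.1 ± 2.93 CPM in dex and 38.6 ± 2.78 CPM in control. Neither passed in any comparison.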
